A study of Mus musculus with 18 samples.

Results

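The clustered protocadherins are cell-surface cadherins encoded in 3 neighbouring gene groups, alpha, beta and gamma, on mouse chromosome 18. Members were all gene symbols of the authors' deposited gene table that begin with Pcdha, Pcdhb, or Pcdhga, Pcdhgb or Pcdhgc, followed by the member's number or, for Pcdhac1 and Pcdhac2, by c. The choice used names and no measured value. It took 58 of the 35734 genes in that table, namely 14 alpha, 22 beta and 22 gamma entries. They carry 57 symbols, because Pcdha11 is listed under 2 identifiers (ENSMUSG00000007440 and ENSMUSG00000102206). The alpha gene Pcdha10 is not among the table's symbols, so the alpha counts, medians and sums below leave it out.

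The fibroblast experiments asked what Ikzf1 and Ikzf4 change when they are added to Brn2 and Myt1l. Mouse embryonic fibroblasts of the R26-M2rtTA line on C57BL/6, which carries a doxycycline-dependent transactivator, received doxycycline-inducible lentiviral vectors for the neuronal transcription factors Brn2 and Myt1l, without or with the zinc-finger factors Ikzf1 and Ikzf4. At 48 h, 3 libraries per group were made for RNA-seq and 3 for ATAC-seq, an assay in which a transposase cuts accessible DNA. Both groups carried Brn2 and Myt1l, so the comparison holds no cells without factors. No label says whether libraries came from separate cultures, so the p-values measure the spread between these libraries, which may be technical. The single-nucleus multiome gave 1 ATAC library of retina from GLAST-CRE ERT2 ; RosaYFP C57BL/6 mice, labelled Muller glia with mCherry as control, and 1 labelled Ikzf1/4 whose tissue, line and strain are not stated beyond that title. GLAST-CRE ERT2 drives recombination in Muller glia after tamoxifen. Both multiome samples are described with tamoxifen and 14 days, whereas the run names in the file headers carry 48 h.

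Each alpha and gamma member has its own promoter and its own large first exon, which is spliced to exons shared by the whole group, while each beta member is a single-exon gene. A neuron typically uses a few of the promoters, chosen largely at random with the help of CTCF and cohesin loops to distant enhancers, and the resulting surface code lets branches of the same neuron recognise and avoid each other. The C-type members Pcdhac1, Pcdhac2, Pcdhgc3, Pcdhgc4 and Pcdhgc5 lie at the ends of the alpha and gamma groups and are known for more uniform use across cells. The shared exons also mean that reads from the common part of alpha or gamma messages had to be divided among members by the transcript quantifier.

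In fibroblasts the alpha and beta calls with Ikzf1 and Ikzf4 were mostly lower, and the gamma calls were mostly higher. The authors' deposited table gave an adjusted p to 54 members, and 22 of them passed 0.05 (DESeq2), where 30.6% of all 16757 tested genes passed. Of these 22, 8 were higher with Ikzf1 and Ikzf4 (15.3% of all tested genes were) and 14 were lower (15.4% of all tested genes were). Among members with a mean normalised count of at least 100 over the 6 libraries, 15 of 29 passed, beside 37.5% of all genes at that level. In the authors' deposited table the alpha group had 0 higher and 4 lower calls, with a median log2 fold change of -0.40 over its 11 tested entries. The beta group had 1 higher and 7 lower there, with a median of -0.33 over 21 tested. The gamma group had 7 higher and 3 lower, with a median of 0.10 over 22 tested. The median over all tested genes was -4.30e-04. With the members that have no adjusted p, the alpha and beta medians were -0.17 and -0.24 in the authors' deposited table. The differences between the groups' counts were not tested. Gene values per library were not used here, because no source pairs the transcript estimates with genes, so these means and fold changes are the authors' and have no replicate check. Standard errors were small at the lowest counts (0.05 for Pcdhb1, with a mean of 0.155, in the authors' deposited table), as they are in fits that shrink folds toward 0, so folds of low members may understate the change. In bulk RNA, a lower share of cells using a promoter and less RNA per cell cannot be told apart.

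**Figure D1:**
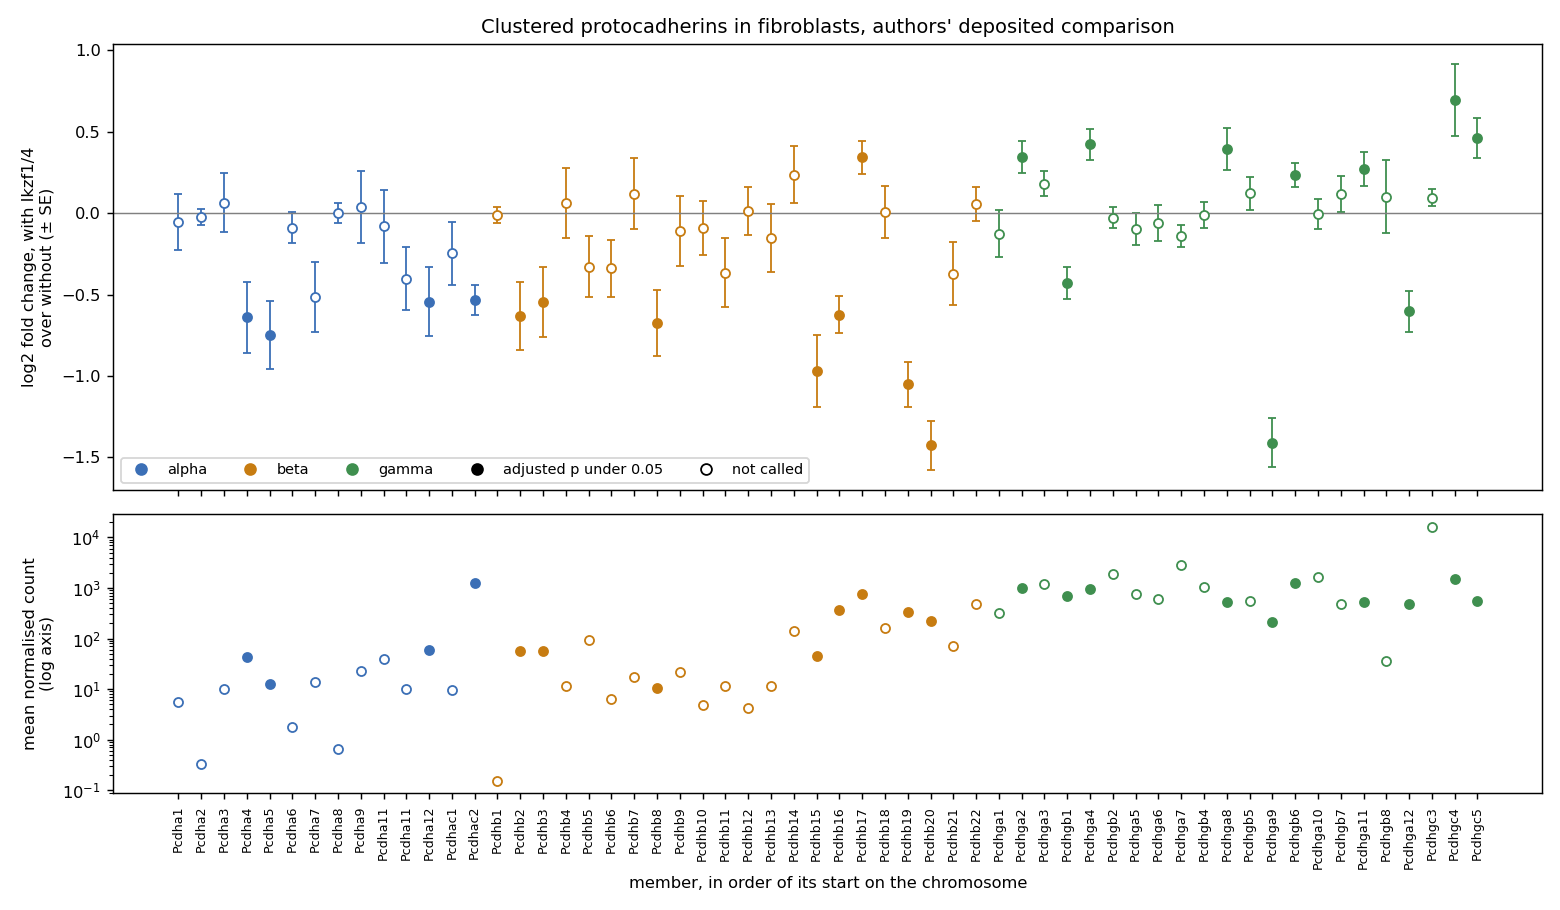
Log2 fold change with its standard error (upper axis) and mean normalised count on a log axis (lower axis) of the 58 protocadherin entries, in chromosomal order, from the authors' deposited table. Filled points passed an adjusted p of 0.05: the 4 filled alpha points lie below 0, the gamma points lie on both sides, and Pcdhb20 and Pcdhga9 are the lowest.

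Gamma members, which hold most of the normalised counts of the clusters in these fibroblasts, ran in both directions along the gene order. Pcdhgc3 had the largest mean normalised count of all members, 16106, with a log2 fold change of 0.10 (SE 0.05, DESeq2 adjusted p = 0.178, authors' deposited table), so it did not pass. The other gamma members with the largest means were Pcdhga7 (2886) and Pcdhgb2 (1882), and in the authors' deposited table their log2 fold changes of -0.14 and -0.03 did not pass either. Means scale with transcript length, so they do not order the members by level.

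Pcdhga9 fell by 1.41 on the log2 scale, to 0.376 of the level without Ikzf1 and Ikzf4 (SE 0.15, DESeq2 adjusted p = 8.55e-19, authors' deposited table). Its neighbours on the chromosome are Pcdhgb5, which did not pass, and Pcdhgb6. Pcdhgb6 rose by 0.24 (SE 0.07, DESeq2 adjusted p = 0.00604, authors' deposited table), and Pcdhga8, the A-type member before Pcdhga9, rose by 0.40 (SE 0.13, DESeq2 adjusted p = 0.0094). Members whose first exons lie side by side, and which share all later exons, thus moved in opposite directions. Pcdhga12 fell by 0.60 and Pcdhgb1 fell by 0.43 on the log2 scale (DESeq2 adjusted p = 9.52e-06 and 1.26e-04, authors' deposited table). Pcdhga2, Pcdhga4 and Pcdhga11 rose by 0.35, 0.42 and 0.27 (DESeq2 adjusted p = 0.00214, 9.80e-05 and 0.0333, authors' deposited table). By type, the authors' deposited table holds 4 higher and 2 lower calls among 12 gamma A members, and 1 higher and 1 lower among 7 gamma B members. All 12 gamma A and 6 of the 7 gamma B members have means of at least 100, where 37.5% of all genes passed in either direction, so the gamma B calls do not exceed that share.

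Of the 5 C-type members, 2 gamma members were higher and 1 alpha member was lower, and the 3 are among the 4 with means of at least 100, where 37.5% of all genes passed in either direction. Pcdhgc4, whose product stands apart in neuronal survival, rose by 0.69 on the log2 scale, to 1.62 times the level without (SE 0.22, DESeq2 adjusted p = 0.00705, authors' deposited table). At a mean of 1472, this SE is large beside those of Pcdhac2 (mean 1242, SE 0.09) and Pcdhgb2 (mean 1882, SE 0.06). Its values per library were not seen here. Pcdhgc5 rose by 0.46 (SE 0.12, DESeq2 adjusted p = 0.00105, authors' deposited table). Pcdhac2, known for its role in the spacing of serotonergic axons, fell by 0.53, to 0.691 of the level without (SE 0.09, DESeq2 adjusted p = 1.21e-07, authors' deposited table). Pcdhac1 had a mean of only 9.41 and a log2 fold change of -0.25 that did not pass (DESeq2 adjusted p = 0.367, authors' deposited table).

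Among the alpha members Pcdhac2 had by far the largest mean normalised count, 1242, in the authors' deposited table. The 13 other alpha entries had means from 0.329 to 58.8 there, of which Pcdha12 (58.8) and Pcdha4 (43.9) were the largest. Of the 9 numbered entries tested, 3 passed, each lower, beside 15.4% of all tested genes lower. They were Pcdha5 (fell by 0.75, DESeq2 adjusted p = 0.00164), Pcdha4 (fell by 0.64, adjusted p = 0.0149) and Pcdha12 (fell by 0.54, adjusted p = 0.0352), from the authors' deposited table. All 3 have means under 100, where lower calls were rarer. Of the 2575 tested genes called lower, 2382 had means of at least 100, a level that 12200 of the 16757 tested genes reached. Both Pcdha11 entries missed the threshold, at -0.08 and -0.40 on the log2 scale. Pcdha2, Pcdha6 and Pcdha8 have no adjusted p in that table, with means of 0.329, 1.79 and 0.652.

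The beta genes are single exons and share no sequence by splicing, though they resemble one another. Of the 21 tested in the authors' deposited table, 8 passed, 1 higher and 7 lower, where 30.6% of all tested genes passed. The last 8 genes of the row, Pcdhb15 to Pcdhb22, hold 5 of the 8, and they are also the better counted ones, with 6 of 8 at means of at least 100 against 1 of the 14 before them. At that level 37.5% of all genes passed. Pcdhb20 fell by 1.43 on the log2 scale, to 0.372 of the level without (SE 0.15, DESeq2 adjusted p = 4.35e-19, authors' deposited table). Pcdhb19, beside it, fell by 1.05 (SE 0.14, DESeq2 adjusted p = 6.09e-13, authors' deposited table). Pcdhb15 and Pcdhb16 fell by 0.97 and 0.62 (DESeq2 adjusted p = 8.24e-05 and 3.74e-07, authors' deposited table). Pcdhb17 lies between Pcdhb16 and Pcdhb19 with Pcdhb18 and rose by 0.34 (SE 0.10, DESeq2 adjusted p = 0.00338, authors' deposited table), while Pcdhb18 stood at 0.01. Per kb of RefSeq gene length, Pcdhb17 had the largest mean of the beta genes named here, 231 normalised counts per kb, ahead of Pcdhb22 (155), Pcdhb19 (70.5), Pcdhb16 (70.0) and Pcdhb20 (65.9). Pcdhb22 had a log2 fold change of 0.06 (DESeq2 adjusted p = 0.75, authors' deposited table).

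The other 14 beta genes, Pcdhb1 to Pcdhb14, had mean normalised counts from 0.155 to 142 in the authors' deposited table, and 3 of the 13 tested were called lower and 0 higher, where 15.4% of all tested genes were lower. The 3 were Pcdhb8 (fell by 0.68), Pcdhb2 (fell by 0.63) and Pcdhb3 (fell by 0.55), with DESeq2 adjusted p of 0.00444, 0.00995 and 0.0407 in the authors' deposited table. Their means of 10.3, 57.5 and 56.0 are under 100, where lower calls were rarer, as given above for the alpha members. Pcdhb1 had a mean of 0.155 and no adjusted p.

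Related genes outside the clusters showed calls in both directions. Of 11 non-clustered protocadherins, which share the cadherin fold but come from ordinary single promoters, 9 were tested in the authors' deposited table, and 5 were higher and 2 lower. All 9 have means of at least 100, where 37.5% of genes passed in either direction. Pcdh10 rose by 0.65 and Pcdh7 by 0.33, whereas Pcdh18 fell by 0.49 and Pcdh20 fell by 0.71 on the log2 scale (DESeq2 adjusted p = 3.11e-14, 3.63e-09, 5.07e-17 and 2.22e-12, authors' deposited table). Of 20 genes for chromosome looping and for silencing known at the locus, 9 were higher and 1 was lower there, with 19 of the 20 at means of at least 100, where the same 37.5% applies. Atf7ip, a partner of the histone methyltransferase Setdb1, rose by 0.72 (DESeq2 adjusted p = 2.19e-16). The cohesin subunit Smc3, the cohesin loader Nipbl and the cohesin release factor Wapl rose by 0.26, 0.34 and 0.30 (DESeq2 adjusted p = 3.61e-07, 1.14e-05 and 1.79e-06, authors' deposited table). Not every gene of these functions passed. The cohesin subunits Rad21 and Stag2 stood at 0.08 and -0.05, Mau2, the partner of Nipbl, at 0.008 and Setdb1 at -0.003, all without a call. The gene called lower was Wiz, a zinc-finger protein that binds at CTCF sites, which fell by 0.21 (DESeq2 adjusted p = 0.00326, authors' deposited table).

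Of 15 genes for proteins that process or act beneath the protocadherins, 4 were higher and 6 lower in the authors' deposited table, all 15 at means of at least 100, where 37.5% of genes passed in either direction. Adam10, the protease that sheds gamma ectodomains, fell by 0.31 (DESeq2 adjusted p = 9.09e-09, authors' deposited table). Ptk2, a focal adhesion kinase held by the shared tails, fell by 0.26 and the receptor kinase Ret rose by 0.69 (DESeq2 adjusted p = 1.01e-04 and 3.52e-04, authors' deposited table). Of 11 genes that flank or lie between the clusters, 10 were tested, and 3 were higher and 1 lower, where 37.5% of genes at means of at least 100, as these 10 have, passed in either direction. Rell2 rose by 0.94, Taf7, which lies between the beta and gamma groups, by 0.38, and Diaph1, just past the gamma group, by 0.20 (DESeq2 adjusted p = 6.26e-12, 0.00702 and 0.00373, authors' deposited table). Fchsd1 fell by 0.39 (DESeq2 adjusted p = 0.0176).

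As a check of the labels, Ikzf4 and Ikzf1 were higher by 8.54 and 7.76 on the log2 scale in the authors' deposited table, which includes vector RNA where it aligns. Of the factors given to both groups, Myt1l was higher with Ikzf1 and Ikzf4 by 0.50 (DESeq2 adjusted p = 0.0157, authors' deposited table) and Pou3f2, the gene for Brn2, stood at -0.05. The part of the Myt1l difference in the protocadherin values was not tested. The RNA libraries held 34966344 to 44270426 estimated reads. All 10 fibroblast markers were present, with means of 269 to 120590, and 6 of 10 were lower and 0 higher with Ikzf1 and Ikzf4 (authors' deposited table), beside 15.4% of all tested genes lower. Of 10 neuron markers, 9 were tested, and 1 was higher (Ina, 1.19) and 1 lower (Tubb3, -0.42) there, beside 15.3% and 15.4% of all tested genes. Markers of microglia were also present, with means of 43.2 to 2580 for 8 genes and 1 lower call (C1qa, -0.17), beside the same 15.4%. Ganglion markers (5 tested) and amacrine markers (6 tested) had 3 higher and 0 lower calls each. The amacrine calls had means of only 10.2 to 13.5, and the ganglion calls had means of 14.3 to 730. Muller glia markers (8 tested) had 2 higher and 1 lower, and rod markers (7 tested) had 0 calls. Bipolar (4 tested) and keratinocyte markers (3 tested) had 1 higher call each, and cone markers (6 tested) had 1 lower. Endothelial (5 tested) and muscle markers (3 tested) had 0 calls. The same 15.3% higher and 15.4% lower of all tested genes stand beside each of these counts. The part of such cell types in the protocadherin values was not tested.

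Open chromatin of the fibroblasts was read from the peaks that the authors' caller listed for each library. The peak positions fit the mm9 build, for which no gene annotation was used here. A window of chromosome 18 from 37 to 38 Mb was therefore taken as the locus from general knowledge, and its peaks were not assigned to genes. The 3 libraries without Ikzf1 and Ikzf4 had 85, 68 and 65 peaks there, a mean of 72.7 ± 10.8 (SD, n = 3). The 3 libraries with both had 87, 81 and 90 peaks, a mean of 86 ± 4.58 (SD, n = 3). The groups overlapped, since 85 lies above 81, and the difference of 13.3 peaks had p = 0.2 in a two-sided exact permutation test whose smallest possible p is 0.1. The lists ranged from 131297 to 207243 peaks, and per 10000 peaks of its library the window held 4.25, 4.01 and 4.95 without and 4.40, 4.04 and 4.34 with Ikzf1 and Ikzf4. That difference had the opposite sign, -0.142 (exact permutation p = 0.9).

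The position of peaks inside the window was then compared region by region. Peaks of the 6 lists merged into 139 regions, of which 37 were in all 6 lists. A region counted as gained if every library with the added pair listed it and no library without did, and as lost in the opposite case. The window held 15 gained regions, 10.8% of the window's regions beside 9.43% of all 321676 regions. It held 7 lost regions, 5.04% beside 3.67%. Both shares lie near those of the genome. With only peaks of a −log10 q of at least 5, 2 gained and 0 lost regions were left.

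The 200 kb between 37400001 and 37600000, a stretch chosen after its values were seen, held 6, 3 and 1 peaks in the libraries without and 17, 16 and 17 in the libraries with Ikzf1 and Ikzf4. Among the same number of highest peaks in each library it held 0, 0 and 1 without and 9, 10 and 6 with. The groups did not overlap in either count, with an exact permutation p of 0.1, the smallest that 3 against 3 libraries allow. The choice of the stretch used these same values, so this p and the region counts there are no independent test of it. By that choice, 8 of the 15 gained regions and 0 of the 7 lost regions lie there. The lost regions include chr18:37668026-37668969, with a fold of 2.84, 3.41 and 2.91 over the caller's background, the authors' value for each peak. The gained region with the highest mean score over the 3 lists was chr18:37616191-37617613, with folds of 3.29, 3.61 and 3.53, and that with the highest single score was chr18:37374917-37375548, with folds of 3.62, 2.49 and 3.20. By comparison, the strongest region in all 6 lists was chr18:37803008-37804378, with folds of 5.61 to 7.35.

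**Figure D2:**
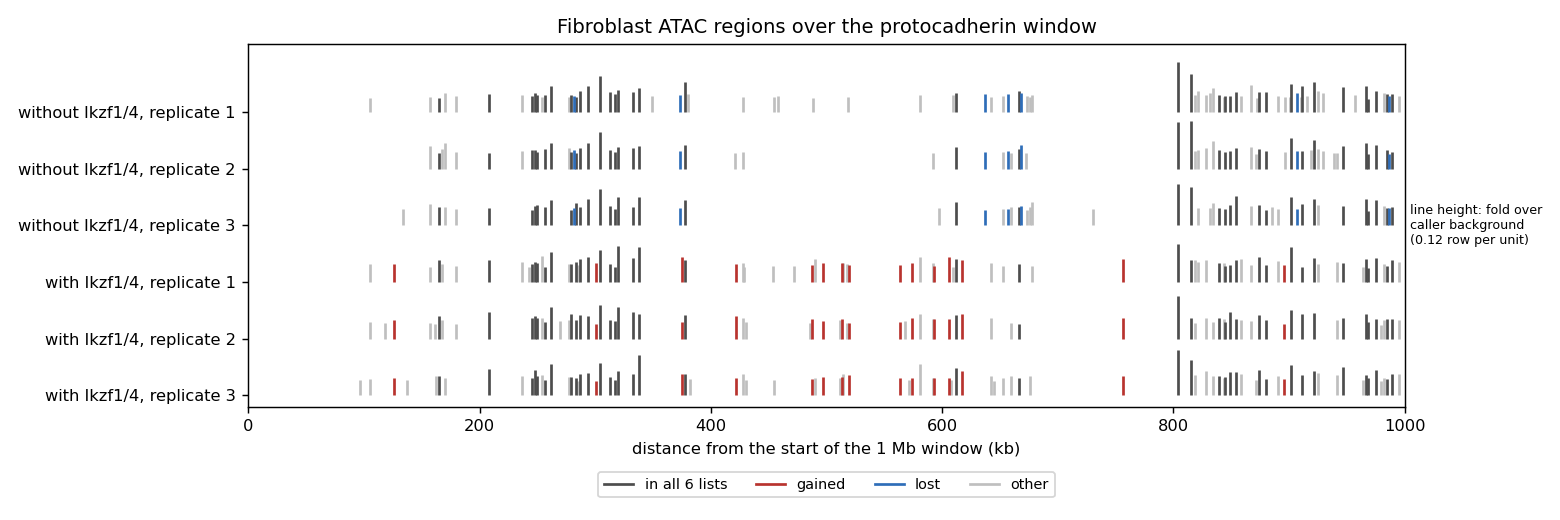
Peak regions of the 6 fibroblast ATAC libraries against the distance in kb from the start of the 1 Mb window, with line height giving the authors' fold over background. The stretch between 400 and 600 kb was chosen after its values were seen. There the libraries with Ikzf1/4 hold 17, 16 and 17 peaks and those without hold 6, 3 and 1.

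In the retinal multiome, accessibility was read as fragments that overlap the 500 bp on both sides of each member's start (RefSeq genes of GRCm38.p6, the mm10 build). Values are CPM, the number of such fragments for each 1000000 of the library. All 57 symbols were found there. The control library held 52062633 fragments and the Ikzf1/4 library 29334752. With 1 library per group there is no test, and the 95% intervals below cover counting error only. Most members had little signal at their start. The median over members was 0.557 CPM in control and 0.614 in Ikzf1/4, beside 2.11 and 2.35 over 17492 protein-coding gene starts, and 53 of 57 members lay below that median in both libraries. The list of gene starts used here, and for the scaling to gene starts below, holds none on chromosome 18. Bins of 1 kb in the locus away from member starts, with bins at other genes and bins without fragments included, had medians of 0.288 and 0.341 CPM.

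Only 4 starts stood above the median of all genes in both libraries, and all 4 were C-type. Pcdhgc3 had 7.15 CPM in control (95% exact Poisson interval 6.44 to 7.91) and 7.60 in Ikzf1/4 (6.64 to 8.67). Pcdhac2 had 3.02 and 4.23, a ratio of 1.40 (1.10 to 1.79). Pcdhgc4 had 2.96 and 4.09, a ratio of 1.38 (1.08 to 1.77). Both ratios are over all fragments, and single members were not scaled to fragments at all gene starts. On that scale the ratio for all members went from 1.16 to 0.958. Pcdhac1 had 2.13 (1.75 to 2.57) and 2.42 (1.89 to 3.05). The fifth C-type member, Pcdhgc5, had 1.19 and 1.26. Of the other gamma members, Pcdhgb8 had 1.54 and 1.74, the highest in control. The highest numbered alpha member in control was Pcdha9 (0.749, with 0.443 in Ikzf1/4), and the leading beta members in control were Pcdhb16 (0.730 and 0.648), Pcdhb1 (0.711 and 1.23) and Pcdhb15 (0.672 and 0.716).

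Over all 57 members the Ikzf1/4 library had 53.8 CPM against 46.4 in control, a ratio of 1.16 (1.09 to 1.24). Scaled to fragments at all gene starts of that list in place of all fragments, the ratio was 0.958 (0.898 to 1.02). The alpha, beta and gamma ratios of 1.17, 1.23 and 1.13 became 0.962, 1.02 and 0.931 on that scale. Over fragments of cells alone, the ratio for all members was 1.06 (0.969 to 1.16) and that for beta 0.993 (0.792 to 1.24). The difference between these libraries thus changed with the scale and with the barcodes used, and on the gene-start scale and in cells the interval for all members includes 1. The libraries also differed in cell makeup. Of 10 clusters made from the cells by accessibility, cluster 2 held 25.3% of the 1882 control cells and 5.67% of the 688 Ikzf1/4 cells, and cluster 9 held 1.43% and 16.9%. Clusters 4, 5 and 8 held 4.99%, 13.9% and 5.05% in control and 17.3%, 19.3% and 18.9% in Ikzf1/4, and cluster 1 held 20.6% and 7.85%. The part of this makeup in the ratios was not tested.

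Outside member starts, a few narrow bins carried more fragments than nearly all members. The bin chr18:37852001-37853000, past Pcdhgc5 and inside Diaph1, had 8.28 CPM in control and 8.52 in Ikzf1/4. The bin chr18:37218001-37219000, between the end of the alpha group and Pcdhb1, had 7.88 and 8.49. The bin chr18:37178001-37179000, inside the alpha genes ahead of their shared end near 37187657, had 5.22 and 6.85. Known enhancers of the alpha group lie at its far end and just past it, and those of the beta and gamma groups lie past the gamma group, but whether these bins are those elements was not tested. Of flanking genes, taken at the gene end with more fragments, Diaph1 had 21.1 in control and 24.3 in Ikzf1/4, Rell2 had 6.59 and 8.93, Hdac3 had 6.45 and 8.86, and Fchsd1 had 4.57 and 6.10. The shared end of Hars and Hars2 had 6.43 and 8.80, and Wdr55 had 4.09 and 4.87. Zmat2 had 9.64 and 9.34, and Taf7 had 7.86 and 7.30. These values of flanking genes are over all fragments, carry no intervals and were not scaled to fragments at all gene starts.

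**Figure D3:**
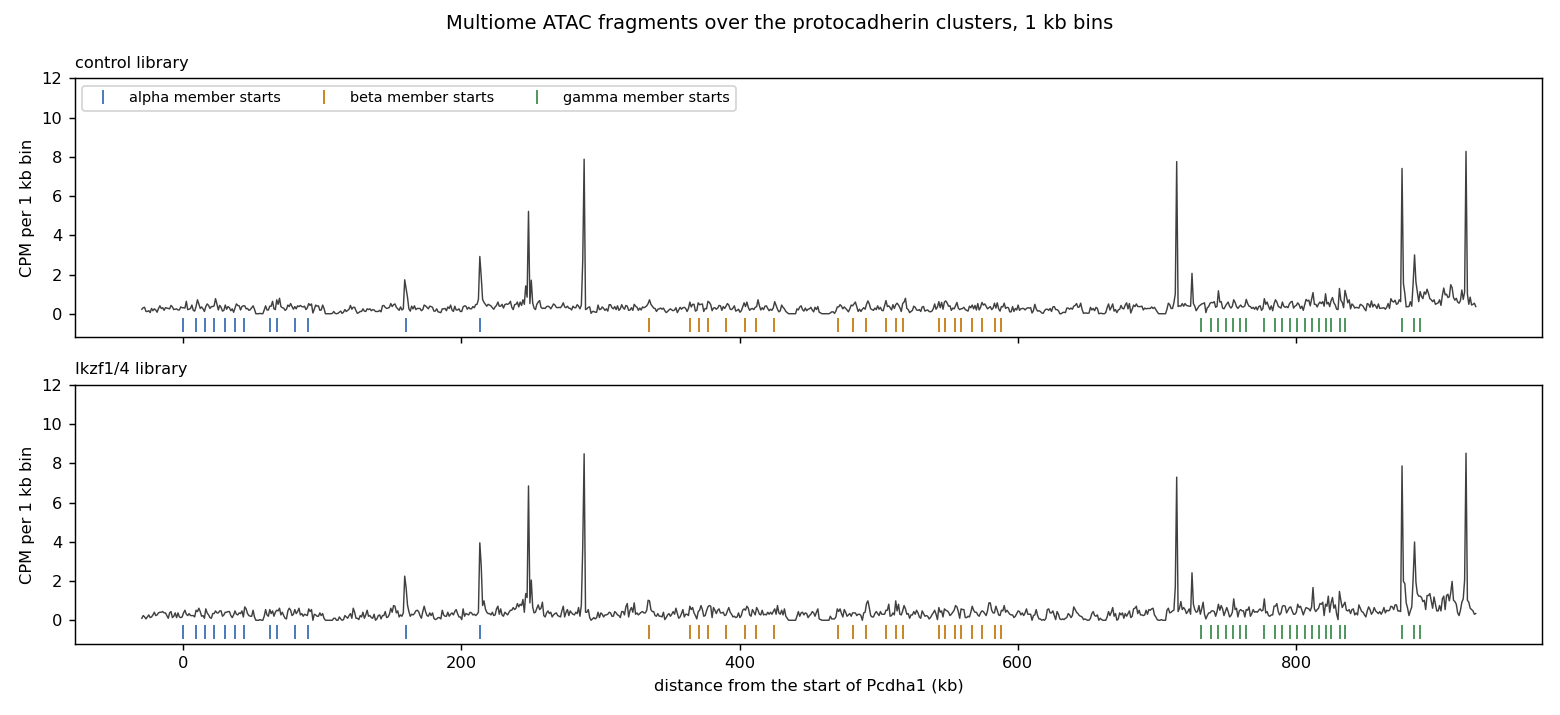
Multiome ATAC fragments, as CPM, in 1 kb bins against the distance in kb from the start of Pcdha1, for the control library (upper) and the Ikzf1/4 library (lower), with ticks at member starts. Narrow peaks rise at 4 of the 5 C-type starts, at bins between and past the groups, and at Taf7 between the beta and gamma groups. Most other member starts have far lower values. The median over all members is 0.557 CPM in control and 0.614 in Ikzf1/4, beside 0.288 and 0.341 in bins without a member start.

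The cells came from several types. After filters, 1882 control cells and 688 Ikzf1/4 cells (median 6244 and 10902 fragments) fell into 10 clusters, made without the fragments of the locus. Accessibility at markers made clusters 0 and 1 Muller glia-like, cluster 3 microglia-like, clusters 4 and 6 bipolar-like, cluster 5 cone-like and cluster 8 rod-like, and 3 clusters stayed unnamed. The library labelled Muller glia was mixed: clusters 0 and 1 held 249 and 388 of its 1882 cells, against 73 and 54 of the 688 Ikzf1/4 cells. The marker limit for these names was set after the data were seen. Muller glia are the support cells of the retina, cones and rods its photoreceptors, and bipolar cells its relay neurons. In clusters 0 and 1, 10 Muller glia markers were higher than in the other cells. The leading 10 genes of clusters 0, 1, 3 and 6 hold 0 markers of the name given, and those of cluster 0 hold Pax6, from the amacrine list. Clusters are therefore compared by number, and the names only describe them. The libraries share 3 cell barcodes.

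Alpha starts, summed and led by the C-type members, had several times more fragments in cluster 5 than in clusters 0 and 1. Summed over the 13 alpha starts, cone-like cluster 5 had 41.8 CPM, taken over the fragments of its cells, in control (33.8 to 51.2) and 33.8 in Ikzf1/4 (25.4 to 43.9). Muller glia-like cluster 1 had 9.77 (6.44 to 14.2) and 7.86 (2.55 to 18.3), and cluster 0 had 3.36 (0.915 to 8.59) and 3.57 (0.432 to 12.9). The ratio of cluster 5 to cluster 1 in control was 4.28 (2.76 to 6.83), and 3.52 when scaled to fragments at all gene starts. Bipolar-like cluster 4 had 28.7 and 26.2, and rod-like cluster 8 had 8.56 and 9.94. The C-type Pcdhac2 and Pcdhac1 made up most of the cluster 5 value. Pcdhac2 had 23.6 (17.7 to 30.8) and 19.6 (13.4 to 27.7) there, against 4.34 (2.24 to 7.58) and 1.57 (0.0398 to 8.76) in cluster 1. Pcdhac1 had 8.90 and 6.75 in cluster 5, and the leading numbered start there in control, Pcdha12, had 2.22. In cluster 4 Pcdhac1 had 2.87 in control and 12.4 in Ikzf1/4, so in Ikzf1/4 it was higher there than in cluster 5. In cluster 4 of control, Pcdha4 and Pcdha5 had 4.30 each, from 3 fragments each. Unlike its library ratio, Pcdhac2 was lower in Ikzf1/4 in clusters 5, 1 and 4 (10 and 5.83), though higher in cluster 8 (6.85 and 7.65). The intervals of both libraries overlap in clusters 5 and 1. The values rest on 12 and 1 fragments in cluster 1 and on 7 and 8 in cluster 4. Over all cells Pcdhac2 had 102 of 13698036 fragments in control and 90 of 9078902 in Ikzf1/4. The clusters listed here thus do not show a fall over all cells.

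Pcdhgc3 had another order, with its highest values, among the named clusters of over 100 cells, in clusters 0 and 1. Cluster 0 had 32.7 (23.3 to 44.7) in control and 42.8 (27.4 to 63.7) in Ikzf1/4, and cluster 1 had 31.5 (25.2 to 38.8) and 33.0 (20.4 to 50.4). Cone-like cluster 5 had 16.5 (11.6 to 22.7) and 19.6 (13.4 to 27.7), rod-like cluster 8 had 17.1 and 20.7, and bipolar-like cluster 4 had 14.3 and 14.6. The control intervals of clusters 1 and 5 do not overlap, while the Ikzf1/4 intervals do. Pcdhgc4 had 17.9 (13.4 to 23.5) in unnamed cluster 2 of control, above the 2.53 (1.02 to 5.22) of cluster 1, and 24.2 and 3.14 in those clusters of Ikzf1/4. In bipolar-like cluster 4 it had 8.60 and 17.5, with intervals that overlap those of cluster 1.

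The beta starts, summed, had 24.4 (14.2 to 39.0) and 27.0 (19.0 to 37.2) in bipolar-like cluster 4 and 17.4 (12.8 to 23) and 15.7 (7.54 to 28.9) in Muller glia-like cluster 1. Cluster 0, also Muller glia-like, had 7.55 (3.45 to 14.3) and 8.92 (2.90 to 20.8), close to cone-like cluster 5 with 6.67 (3.73 to 11) and 7.98 (4.25 to 13.6), and rod-like cluster 8 had 5.13 and 6.12. Cluster 5, high at the summed alpha starts through their C-type members, was thus among the low ones at beta starts. The gamma A and gamma B starts, summed together, had 38.3 in control and 36.8 in Ikzf1/4 in cone-like cluster 5. In the same order they had 18.8 and 15.7 in cluster 1, and 16.8 and 7.14 in cluster 0. In the microglia-like cluster 3 of control they had 43.6 (32.4 to 57.5) while the alpha starts had 1.74 (0.211 to 6.30), and its leading members after Pcdhgc3 were Pcdhgb6 and Pcdhgb7, with 8 fragments each. In Ikzf1/4 that cluster held only 18 cells and 4 fragments at gamma starts.

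The bin inside the alpha genes ahead of their shared end separated the clusters further. Bipolar-like cluster 4 had 50.2 (34.9 to 69.8) and 44.4 (34.0 to 57.1) CPM there, and cone-like cluster 5 had 28.0 and 20.9. Muller glia-like cluster 1 had 1.45 (0.394 to 3.71) and 1.57 (0.0398 to 8.76), and cluster 0 had no fragment in control, with an upper 95% bound of 3.10, and 1.78 in Ikzf1/4. The bin past Pcdhgc5 was open throughout, with 21.3 and 31.4 in cluster 1, 18.2 and 19.0 in cluster 5, and 20.1 and 32.8 in cluster 4. The named clusters of more than 100 cells differed in depth, with median fragments per cell from 4694 in cluster 0 to 10129 in cluster 3. The order of clusters at the summed alpha starts was the same in both libraries except for clusters 1 and 8, whose intervals overlap. Cells are not replicates, and these differences have no test.

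**Figure D4:**
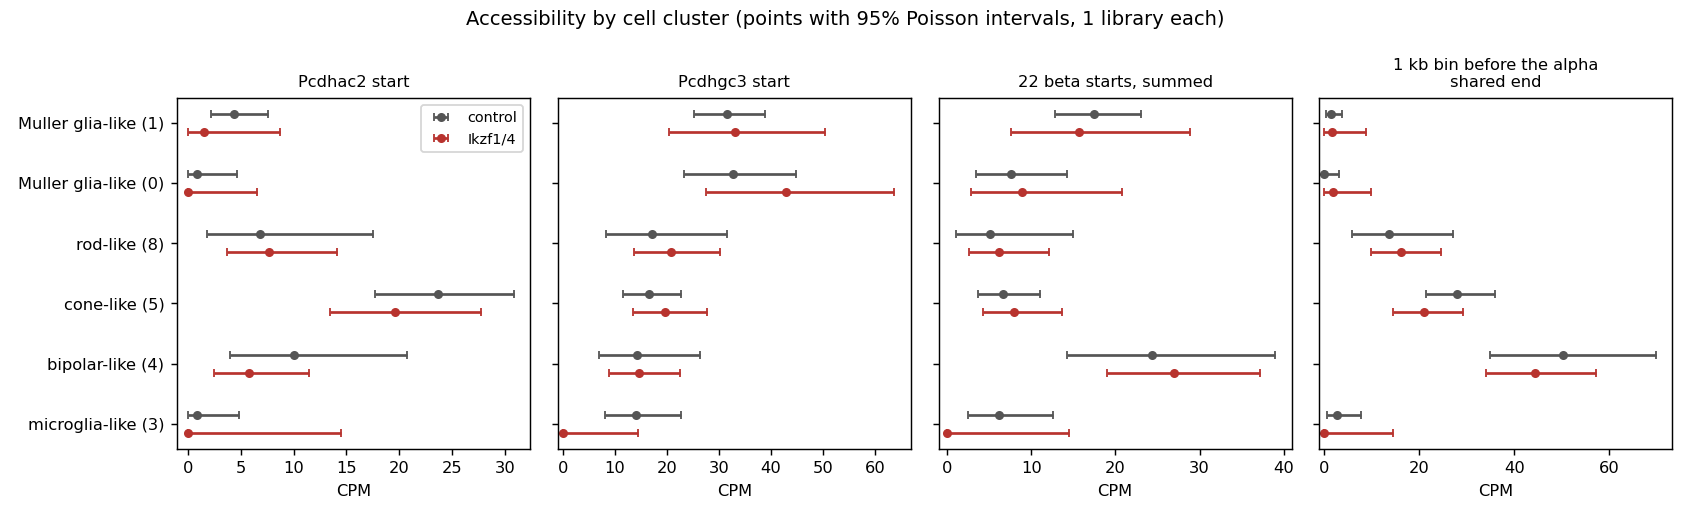
CPM over the fragments of each cluster's cells at the Pcdhac2 start, the Pcdhgc3 start, the 22 beta starts summed and the 1 kb bin ahead of the alpha shared end, for 6 cell clusters in both libraries, with 95% Poisson intervals. Pcdhac2 is highest in cluster 5 (23.6 and 19.6), Pcdhgc3 in clusters 0 and 1, and the bin is near 0 in clusters 0 and 1 and 50.2 and 44.4 in cluster 4.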

How the data were processed

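Members and gene lists were chosen with earlier results of these data known. Per the labels, RNA was quantified with salmon, and the authors deposited estimated counts per transcript, used here for depth only. The authors' deposited DESeq2 table gives, for each gene, p-values before and after adjustment, the Wald score, the log2 fold change with its standard error, and the mean normalised signal. No label says whether folds were shrunk, though standard errors at low counts are small, as in shrunk fits. Per the labels, MACS2 called peaks in each library. The deposited lists hold a score, a fold (ratio) over background and −log10 p and q values. Per the file headers, cellranger-arc 2.0.1 (mm10) made the fragment lists, with read-pair counts per unique fragment. Named were members with an adjusted p under 0.05, the 3 of highest mean per group, C-type members, the 3 of most start fragments per group, and at most the 4 genes of smallest adjusted p per other list. Outside this rule, Wiz, Rad21, Stag2, Mau2, Setdb1 and the flanking genes of the multiome were named after their values were seen. Pcdha2, Pcdha6, Pcdha8, Pcdha10, Pcdha11, Pcdhb18, Pcdhgb5, Pcdhgb7 and the factors given to the fibroblasts are also named outside it.

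Peaks were merged at 1 bp of overlap. This merging was tested on simulated data. Cells had at least 3000 fragments and a start enrichment of at least 4, below the 99th percentile of their library, and no doublet caller was run. Clusters were made with Leiden in scanpy 1.11.5 (resolution 0.8), and intervals with scipy 1.17.1. The single-cell RNA samples were not analysed here. Fragments without molecular identifiers are not fully independent molecules.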

Additional observations from a re-analysis of the deposited data

How the results depend on the processing

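Among the 22 called members, 18 passed an adjusted p of 0.01 (Pcdha4, Pcdha12, Pcdhb3 and Pcdhga11 did not), 20 passed when all genes with a raw p were adjusted together (Pcdha12 and Pcdhb3 did not), and 3 also had a log2 change over 1. The median of members stayed between -0.0872 and -0.0713. The difference in window peaks ranged from 9.5 to 19.5 when 1 library was left out, was 20.7 in a wider window and 3.67 among equal numbers of highest peaks, and became -0.142 per 10000 peaks. With replicate numbers as pairs (replicate block) it was 13.3 (p = 0.25 by exact permutation, the lowest value 3 pairs allow). Same-numbered libraries did not deviate together in their peak scores (correlations of 0.00456, -0.00461 and -0.00127). Scores of called peaks cannot tell whether those libraries shared a culture or batch. Gained regions ranged from 15 to 22 and lost regions from 7 to 9 with 1 library left out. At a −log10 q of at least 5 they were 2 and 0. The multiome ratio for all members was 1.06 in cells and 0.958 scaled to gene starts. On that scale alpha had 0.962, beta 1.02 and gamma 0.931, and beta had 0.993 in cells. In cells of at least 10000 fragments beta had 0.962, alpha 1.44 (1.09 to 1.92), gamma 1.17 and all members 1.18 (1.04 to 1.34). The cause was not tested. The edgeR fit, its replicate block and leaving out RNA libraries were not run, because no source pairs transcripts with genes. Members with few start fragments (13 at the lowest in control) allow only wide intervals.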
